A study of Homo sapiens with 8 samples.

Results

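The genes described here are 35 of the 20531 genes listed in the deposited tables and are connected by ATF4 and the supply of amino acids. They were chosen by symbol and comprise ATF4 with 6 other stress regulators, 4 effectors of the stress response, 9 enzymes of amino acid and one-carbon synthesis, 7 amino acid transporters, and 8 genes that charge or export tRNA. Their mRNA was measured by poly(A) RNA sequencing in SKBR-3 and BT474m1, human breast cancer lines with amplified HER2, of which SKBR-3 is ER-/PR- and BT474m1, a derivative of BT474, is ER+/PR+. Cultures in serum-containing medium were exposed for 48 h to the DMSO vehicle, to 300 nM lapatinib, which inhibits the EGFR and HER2 kinases, to 300 nM JQ1, which displaces BET bromodomain proteins from chromatin, or to both drugs at these doses. Each of the 8 combinations of line and treatment is a single library of an established line, so that no difference could be set against a spread between cultures and no test was made. Values are normalised read counts, scaled to an upper quartile of 1000. Changes are log2 fold changes of value + 1, and a gene is said to have risen or fallen at 2-fold or more. The 95% intervals are of the ratio without the added 1 and cover counting error only.

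ATF4 is a bZIP transcription factor of the integrated stress response. When amino acids run short, proteins misfold or haem is lacking, kinases phosphorylate the initiation factor eIF2alpha, general translation slows and translation of ATF4 mRNA increases. ATF4 then raises genes that import and synthesise amino acids, charge tRNAs and defend against oxidation, as well as DDIT3 (CHOP), a factor linked to cell death under prolonged stress. ATF4 is thus controlled largely at translation, and its mRNA level is not a measure of its protein.

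ATF4 binds, as a dimer with C/EBP proteins, a composite element whose core was searched as TGATGNAA on both strands (TTNCATCA on the other) in the RefSeq promoters of GRCh38.p14, each from 250 bases before to 50 bases after a gene's start. The core was present in 11 of the 29 members that had a promoter in the table (37.9%) and in 561 of 15445 genes (3.63%). Since the members were chosen for their link to ATF4, these shares are no test of the element. A gene with several listed promoters was counted where any of them held the core. PSPH, SHMT2, ALDH1L2, SLC7A11, NUPR1 and GPT2 had no entry. The promoter segments below are shown because they hold the core ahead of the start in 5 members that rose at least 2-fold in SKBR-3 with both drugs (CHAC1, ASNS, AARS, SLC1A5 and CEBPG) and in GARS, which did not. Each is written 5′ to 3′ on the strand of the gene, with the 8 bases of the core, or of its reverse complement, in capitals.
ASNS, chr7:97872437-97872516, minus strand: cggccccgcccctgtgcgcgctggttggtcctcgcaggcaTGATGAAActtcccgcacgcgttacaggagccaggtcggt
CHAC1, chr15:40953222-40953301, plus strand: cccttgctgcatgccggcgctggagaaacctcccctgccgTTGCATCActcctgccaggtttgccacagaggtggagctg
AARS, chr16:70289654-70289733, minus strand: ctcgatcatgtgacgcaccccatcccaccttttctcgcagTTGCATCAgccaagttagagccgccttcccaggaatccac
SLC1A5, chr19:46784872-46784951, minus strand: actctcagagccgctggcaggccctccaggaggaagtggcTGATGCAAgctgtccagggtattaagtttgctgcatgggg
CEBPG, chr19:33374031-33374110, plus strand: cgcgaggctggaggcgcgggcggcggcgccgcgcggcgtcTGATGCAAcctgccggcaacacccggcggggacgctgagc
GARS, chr7:30594798-30594877, plus strand: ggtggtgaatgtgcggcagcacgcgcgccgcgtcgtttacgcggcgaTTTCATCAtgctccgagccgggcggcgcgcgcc
In the promoters shown, the first base of the core lay 68 bases before the start in ASNS, 209 in CHAC1, 187 in AARS, 97 in SLC1A5, 42 in CEBPG and 33 in GARS. ASNS, CEBPG, GARS and SLC1A4 had 2 listed promoters each, and SLC1A5 and SLC3A2 had 3. In each of these genes not all of the promoters held the core. SLC1A4 (TTGCATCA) and MARS (TTGCATCA) held it across the start, and SLC7A1 (TGATGAAA), NARS (TGATGCAA) and SLC3A2 (TTACATCA) just after it. With both drugs in SKBR-3 the 11 members with the core had a median log2 fold change of 0.99 and a range of -0.07 to 4.28, and the 17 without it that were measured above the floor of 3 reads had a median of 0.81 and a range of 0.26 to 3.93. The ranges overlapped almost entirely. In BT474m1 with both drugs the 11 with the core had a median of -0.64 and a range of -1.52 to 0.78. The 18 without it there had a median of -0.35 and a range of -1.60 to 1.42. The part of the core in these changes was not tested.

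The depth was 21420113 to 34112379 reads on genes per library. All 35 members reached a value of 10 in at least 1 library. STC2 had 3, 0, 2 and 1 reads in the 4 SKBR-3 libraries, at or under the floor, and is given no fold change there, which leaves 34 members in SKBR-3. The luminal and HER2 markers EPCAM, KRT8, KRT18, ERBB2 and GATA3 were high in all 8 libraries (lowest value 1623), and ESR1 and PGR were high in BT474m1 (lowest value 190) and at most 16.8 in SKBR-3. The leukocyte markers summed to at most 17.2 and of the fibroblast markers LUM was at 0 throughout, COL1A2 at most 1.75 and COL3A1 at most 8.02, while COL1A1 lay between 337 and 1253 in BT474m1 and between 24.1 and 124 in SKBR-3, and the endothelial markers summed to between 7.0 and 189, with PECAM1 at most 0.58. The part of COL1A1 and the endothelial sum in the results was not tested. A value is an average over a culture, in which more cells with a transcript and more of it per cell cannot be told apart.

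With both drugs the changes from DMSO differed between the lines. In SKBR-3, 15 of 34 members (44.1%) rose and 0 fell, against 10.5% of all genes kept that rose and 20.3% that fell, and the median change was 0.89 for the members and -0.08 for all genes. In BT474m1, 3 of 35 members rose and 8 fell, against 14.1% and 15.2% of all genes, and the medians were -0.47 and 0.00. The members took 0.496% of the reads on genes in SKBR-3 with DMSO and 0.970% when that line received both drugs, and 0.511% and 0.433% in BT474m1.

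**Figure D1:**
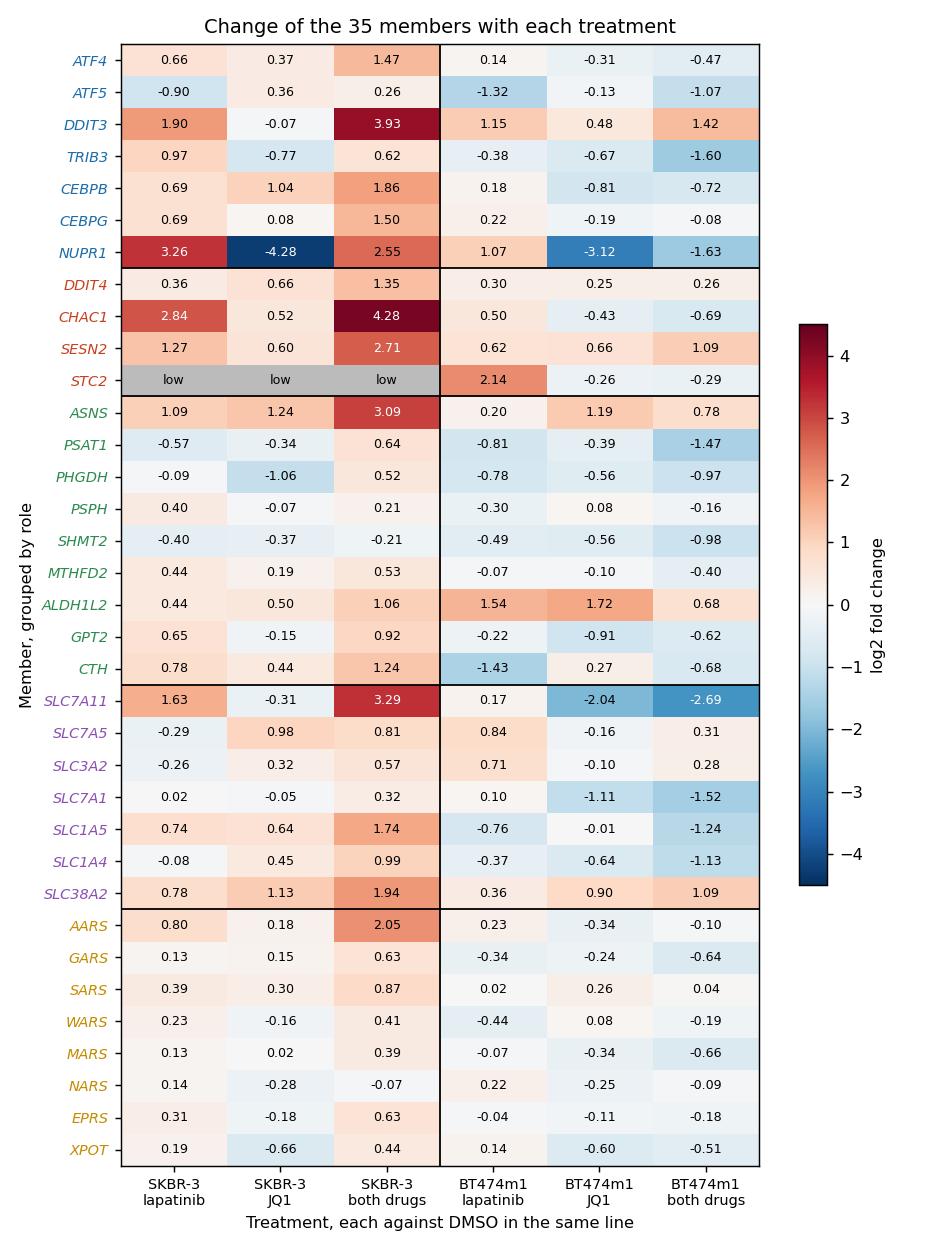
Log2 fold change of the 35 members (rows, grouped by role) with lapatinib, JQ1 and both drugs against DMSO in the same line (columns), 1 library per group. Red is higher and blue lower, and STC2 in SKBR-3 is grey because it lay at or under 3 reads. The SKBR-3 column for both drugs is red for 32 of 34 members, whereas that of BT474m1 is blue for 26 of 35.

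The single drugs moved fewer members. Lapatinib alone raised 6 members in SKBR-3 and lowered 0 (10.7% and 9.07% of all genes), and raised 4 and lowered 2 in BT474m1 (13.9% and 7.99%). JQ1 alone raised 3 and lowered 2 in SKBR-3 (3.51% and 11.2%), a split that scaling by the median of ratios turned into 4 and 1 and scaling to equal totals into 1 and 2. In BT474m1 JQ1 raised 2 and lowered 3 (4.78% and 11.7%), and with a pseudocount of 10 it raised 1. The 6 raised by lapatinib in SKBR-3 were 17.6% of the members, and the other counts are of at most 4 genes, too few to set the members apart from all genes.

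Among the regulators, ATF4 itself had in SKBR-3 2471 normalised counts under DMSO, 3898 under lapatinib, 3184 under JQ1 and 6827 under both drugs. It had 5228, 5758, 4206 and 3784 in BT474m1 in the same order. In SKBR-3 the DMSO library was the lowest and both drugs the highest, a change of 1.47 (95% interval 1.41 to 1.52), whereas in BT474m1 both drugs were the lowest of the 4, at -0.47 (-0.51 to -0.42). With DMSO the level in BT474m1 was above that in SKBR-3, and with both drugs it was below.

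DDIT3, which encodes CHOP, a partner and target of ATF4, had 72.3, 273, 68.9 and 1113 normalised counts in SKBR-3, in the order DMSO, lapatinib, JQ1 and both drugs that is kept below. The values were 319, 709, 446 and 854 in BT474m1. It rose with lapatinib and with both drugs in both lines, the change with both being 3.93 (3.65 to 4.25) in SKBR-3 and 1.42 (1.29 to 1.55) in the other line, and JQ1 alone left the SKBR-3 value at -0.07 (-0.47 to 0.34). DDIT3 overlaps MARS in the annotation and its reads were whole numbers in 3 of 8 libraries, so that its value is uncertain to the extent that reads were divided between the pair. MARS itself was at 0.39 with both drugs in SKBR-3.

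NUPR1 is a small stress-induced chromatin protein. It had 257, 2477, 12.2 and 1506 normalised counts in SKBR-3, and 2010, 4219, 230 and 651 in BT474m1. In both lines lapatinib gave the highest library and JQ1 the lowest, with lapatinib changes of 3.26 (3.11 to 3.43) and 1.07 (1.01 to 1.13) and JQ1 changes of -4.28 (-5.14 to -3.73) and -3.12 (-3.26 to -2.99). The SKBR-3 library with JQ1 rests on 19 reads of NUPR1. With both drugs NUPR1 rose above DMSO in SKBR-3, by 2.55, and fell below it in BT474m1, by 1.63. The same order of the 4 libraries was found in each line for GDF15, SLC6A9 and XBP1, from the other pathway lists described below.

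The other regulators were CEBPB and CEBPG, C/EBP factors that dimerise with ATF4, ATF5, a close relative of ATF4, and TRIB3, a pseudokinase that dampens ATF4 activity. CEBPB and CEBPG rose with both drugs in SKBR-3, by 1.86 and 1.5, and stood at -0.72 and -0.08 in BT474m1. CEBPB also rose with JQ1 alone in SKBR-3, at 1.04 (0.89 at equal totals), where BT474m1 had -0.81. TRIB3 had its highest SKBR-3 value with lapatinib (6920 against 3535 with DMSO, a change of 0.97) and fell in BT474m1 with both drugs, from 3319 to 1097. ATF5 fell with lapatinib and with both drugs in BT474m1 (-1.32 and -1.07) and was at -0.90 with lapatinib in SKBR-3. ATF5 overlaps IL4I1 and NUP62. In all, with both drugs 5 of 7 regulators rose in SKBR-3 (median 1.5), and 1 rose and 3 fell in BT474m1 (median -0.72). For these and the other roles, the shares of all genes are the 10.5% that rose and 20.3% that fell in SKBR-3, and the 14.1% and 15.2% in BT474m1.

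**Figure D2:**
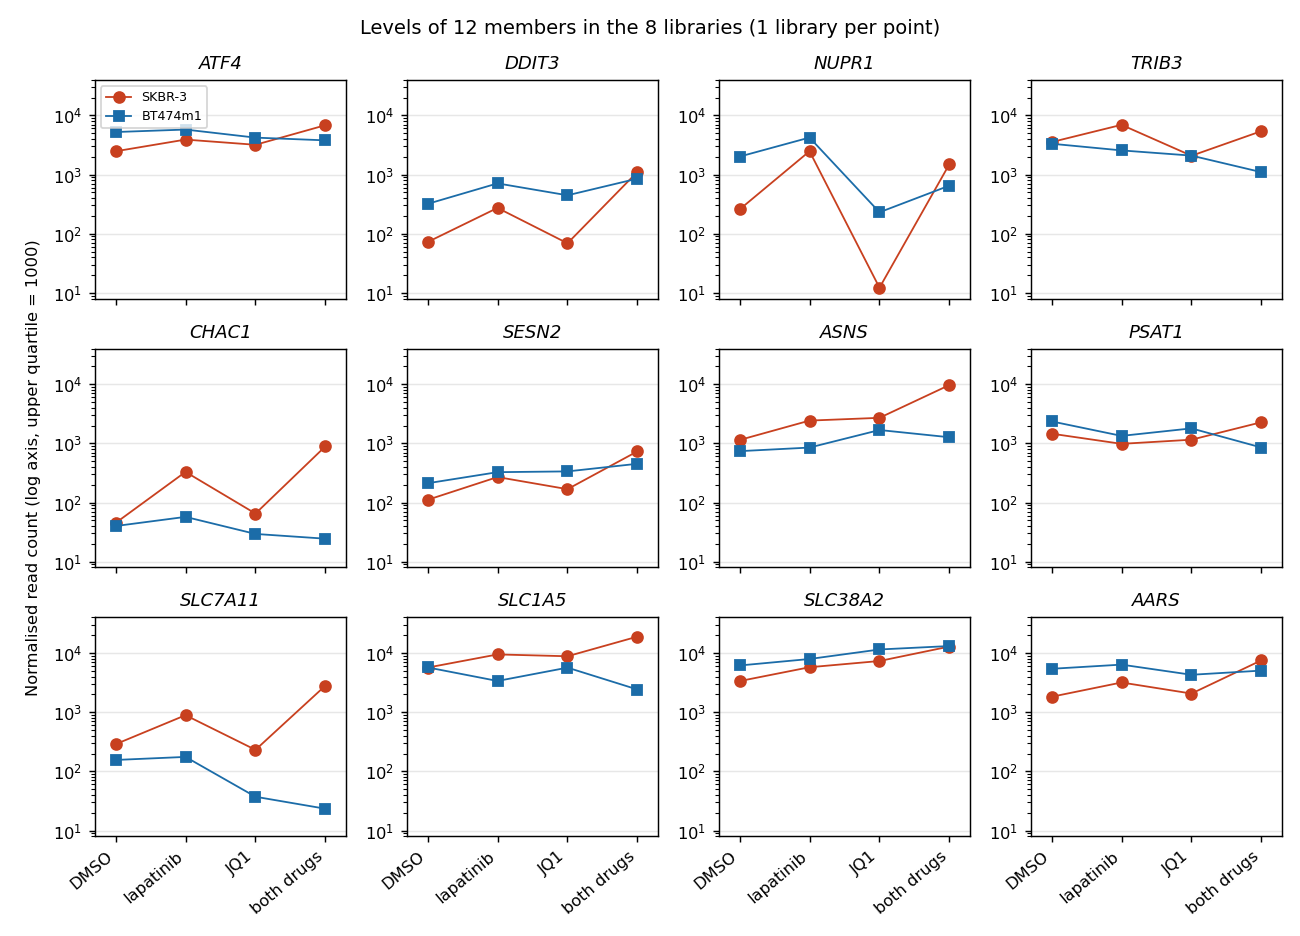
Normalised read count (log axis) of 12 members under DMSO, lapatinib, JQ1 and both drugs, with SKBR-3 as red circles and BT474m1 as blue squares; each point is 1 library and lines only join the points of a cell line. CHAC1 and SLC7A11 separate the lines most, at 893 and 2813 in SKBR-3 against 24.5 and 23.3 in BT474m1 with both drugs, while SLC38A2 reached 12843 and 13090.

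The stress effectors held the member with the highest change against DMSO. CHAC1, which degrades glutathione and is a transcript characteristic of ATF4 activity, had 45.1, 329, 65.1 and 893 normalised counts in SKBR-3. In BT474m1 it had 40.1, 57.2, 29.5 and 24.5. The lines were alike with DMSO (-0.17 for BT474m1 against SKBR-3, -0.66 to 0.32) and lay far apart with both drugs. There CHAC1 was 19.4-fold higher than with DMSO in SKBR-3 (4.28, 3.94 to 4.70), lapatinib alone gave 2.84, and the value with both drugs was at -0.69 (-1.28 to -0.16) in BT474m1.

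SESN2, a leucine-binding inhibitor of mTORC1, rose with both drugs in both lines. Its values were 111, 270, 168 and 733 normalised counts in SKBR-3 and 212, 326, 336 and 452 in BT474m1. The DMSO library was lowest and both drugs highest in each line, with changes of 2.71 (2.48 to 2.98) and 1.09 (0.92 to 1.26). DDIT4 (REDD1), another inhibitor of mTORC1 signalling, rose in SKBR-3, by 1.35 (1.28 to 1.42), and was at 0.26 (0.16 to 0.37) in BT474m1. STC2, a secreted glycoprotein, was at or under 3 reads in SKBR-3 and in BT474m1 had 461, 2039, 384 and 376 normalised counts, with the lapatinib library alone standing out at 2.14 (2.04 to 2.25).

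Of the 9 synthesis enzymes, 3 rose in SKBR-3 with both drugs and 0 fell (median 0.64), and in BT474m1 0 rose and 1 fell (median -0.62), the latter shares being no higher than those of all genes given above. ASNS, asparagine synthetase, led them. It had 1140, 2423, 2699 and 9682 normalised counts in SKBR-3, and 738, 849, 1680 and 1267 in BT474m1. Either drug raised ASNS in SKBR-3, by 1.09 and 1.24, and both together raised it by 3.09 (3.01 to 3.16). In BT474m1 it rose with JQ1 alone, by 1.19 (1.10 to 1.27), and was at 0.78 (0.69 to 0.87) with both drugs.

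The serine pathway, in which PHGDH, PSAT1 and PSPH act in succession, did not pass 2-fold with both drugs in SKBR-3. PSAT1 had 1457, 981, 1153 and 2276 normalised counts there, below DMSO with each single drug and above it with both (0.64), and it fell in BT474m1 from 2351 to 850 (-1.47, -1.55 to -1.38). PHGDH fell with JQ1 in SKBR-3, from 615 to 294 (-1.06, and -0.97 by the median of ratios), and stood at 879 with both drugs, while in BT474m1 it went from 1826 to 931 (-0.97). PSPH ran from 208 to 289 in the SKBR-3 libraries and from 969 to 1254 in those of BT474m1. Against DMSO no member of this pathway therefore rose in either line, whereas in SKBR-3 both drugs raised PSAT1 relative to lapatinib alone (1.21, 1.12 to 1.31) and PHGDH relative to JQ1 alone (1.57, 1.42 to 1.74). In BT474m1 PSAT1 and PHGDH were lower than with DMSO under all 3 treatments.

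In one-carbon metabolism, the mitochondrial enzymes SHMT2 and MTHFD2 stayed between -0.56 and 0.53 with each treatment in both lines, except SHMT2 with both drugs in BT474m1 (-0.98, -1.06 to -0.91), which reached 2-fold by the median of ratios. MTHFD2 had no library with whole reads and overlaps SLC4A5 in the annotation, and its values are uncertain. ALDH1L2, the mitochondrial formyltetrahydrofolate dehydrogenase, rose in SKBR-3 with both drugs from 112 to 235 (1.06, 0.79 to 1.35). At equal totals that change was 0.97. In BT474m1 it had only 10, 26, 37 and 14 reads, and it rose with lapatinib (1.54, 0.63 to 2.95) and with JQ1 (1.72, 0.89 to 3.10) but not with both (0.68, -0.48 to 2.12). With a pseudocount of 10 the first and second of these were 0.80 and 0.92. CTH, which makes cysteine from cystathionine, rose in SKBR-3 from 105 to 248 (1.24, 0.96 to 1.53) and was at -0.68 (-1.14 to -0.26) in BT474m1. With lapatinib alone CTH fell in BT474m1 from 63.2 to 22.9 (-1.43, -2.02 to -0.94). GPT2, the mitochondrial alanine transaminase, stood at 0.92 (0.83 to 1.01, and 1.06 by the median of ratios) and -0.62 (-0.80 to -0.45).

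Transporters had the lowest median of the roles in BT474m1: 3 of 7 rose in SKBR-3 with both drugs and 0 fell (median 0.99), whereas 1 rose, a share like that of all genes, and 4 fell in BT474m1 (median -1.13). SLC7A11, the cystine-importing subunit of system xc-, had 287, 888, 231 and 2813 normalised counts in SKBR-3. In BT474m1 it had 156, 175, 37.2 and 23.3. With DMSO it was lower in BT474m1 by under 2-fold (-0.88, and -1.03 by the median of ratios), and with both drugs SLC7A11 was 9.77-fold higher than DMSO in SKBR-3 (3.29, 3.14 to 3.44) and 6.44-fold lower in BT474m1 (-2.69, -3.25 to -2.26). In BT474m1 the fall was already present with JQ1 alone (-2.04, -2.44 to -1.70), and in SKBR-3 a rise with lapatinib alone (1.63, 1.46 to 1.80).

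SLC1A5 (ASCT2), an importer of glutamine and other neutral amino acids, also went in opposite directions. It had 5656, 9446, 8795 and 18897 normalised counts in SKBR-3, and 5702, 3363, 5651 and 2412 in BT474m1. The DMSO values of the lines were alike (0.01, -0.03 to 0.05), and with both drugs SLC1A5 rose by 1.74 (1.70 to 1.78) in SKBR-3 and fell by 1.24 in BT474m1 (-1.29 to -1.19). In BT474m1 the libraries with lapatinib, alone or with JQ1, were the low ones. Its relative SLC1A4 (ASCT1) stood at 0.99 (0.87 to 1.12, and 1.14 by the median of ratios) and -1.13 (-1.20 to -1.07).

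SLC38A2 (SNAT2), a sodium-coupled importer of small neutral amino acids, rose with both drugs in both lines. Its values were 3346, 5738, 7311 and 12843 normalised counts in SKBR-3 and 6141, 7906, 11450 and 13090 in BT474m1. The order of the 4 treatments was the same in each line. With JQ1 alone the SKBR-3 change was 1.13 (0.98 at equal totals), and the changes with both drugs were 1.94 (1.89 to 1.99) and 1.09 (1.06 to 1.12). SLC7A1 (CAT1), the importer of arginine and lysine, was at 0.32 (0.26 to 0.38) in SKBR-3 and fell in BT474m1 from 1429 to 497 (-1.52, -1.63 to -1.41).

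SLC7A5 (LAT1), which exchanges glutamine for leucine and other large neutral amino acids, and its heavy chain SLC3A2 (4F2hc), which SLC7A11 also needs, were above DMSO with different drugs in the lines. In SKBR-3, SLC7A5 had 11823, 9673, 23389 and 20734 normalised counts, so that the libraries with JQ1 were the high ones. In BT474m1 it had 4528, 8092, 4042 and 5608, and the libraries with lapatinib were the high ones. SLC3A2 followed the same order in BT474m1 (1821, 2978, 1696 and 2206) and was highest with both drugs in SKBR-3 (9700 against 6515 with DMSO, 0.57). SLC7A5 did not pass 2-fold against DMSO in either line, with changes from -0.29 to 0.98, although the value with JQ1 in SKBR-3 was 1.07 by the median of ratios, and it had no library with whole reads.

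The tRNA genes had the smallest median change of the roles in SKBR-3 with both drugs (0.53). AARS, the alanyl-tRNA synthetase, was the 1 of 8 that rose with both drugs in SKBR-3, and by the median of ratios SARS passed 2-fold as well (1.01). AARS had 1817, 3171, 2061 and 7520 normalised counts there, a rise of 2.05 (1.99 to 2.11), and 5398, 6352, 4279 and 5036 in BT474m1 (-0.10, -0.14 to -0.06). The other 7 lay between -0.07 and 0.87 with both drugs in SKBR-3. They were, from the highest, SARS at 0.87, GARS and EPRS both at 0.63, XPOT (the exporter of tRNA from the nucleus) at 0.44, WARS at 0.41, MARS at 0.39 and NARS at -0.07. In BT474m1 all 8 stayed between -0.66 (MARS) and 0.04 (SARS). With a single drug none of the 8 passed 2-fold in either line.

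Set side by side, the change with both drugs was higher in SKBR-3 than in BT474m1 for 34 of 34 members, against 42.9% of all genes kept. The gap was at least 2-fold for 22 members (10.6% of all genes) and at least 2-fold the other way for 0 (19.7% of all genes). Its median was 1.51 for the members and -0.15 for all genes. The closest pair was NARS, at -0.07 and -0.09, which changed order when the libraries were scaled to equal totals, and 33 members were then higher in SKBR-3. By the 2-fold limit the members fell into groups. DDIT3, SESN2 and SLC38A2 rose in both lines, as did 613 of the 14429 genes kept, and 0 members fell in both, against 1246 genes. NUPR1, SLC7A11 and SLC1A5 rose in SKBR-3 and fell in BT474m1 (1.61% of all genes passed 2-fold in opposite directions, in either order). The other members passed 2-fold in at most 1 line. In 23 members the change was above 0 in SKBR-3 and below 0 in BT474m1 (11.9% of all genes). With lapatinib alone the SKBR-3 change was the higher for 29 of 34 members (49.2% of all genes), and with JQ1 alone for 23 (47.7%).

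**Figure D3:**
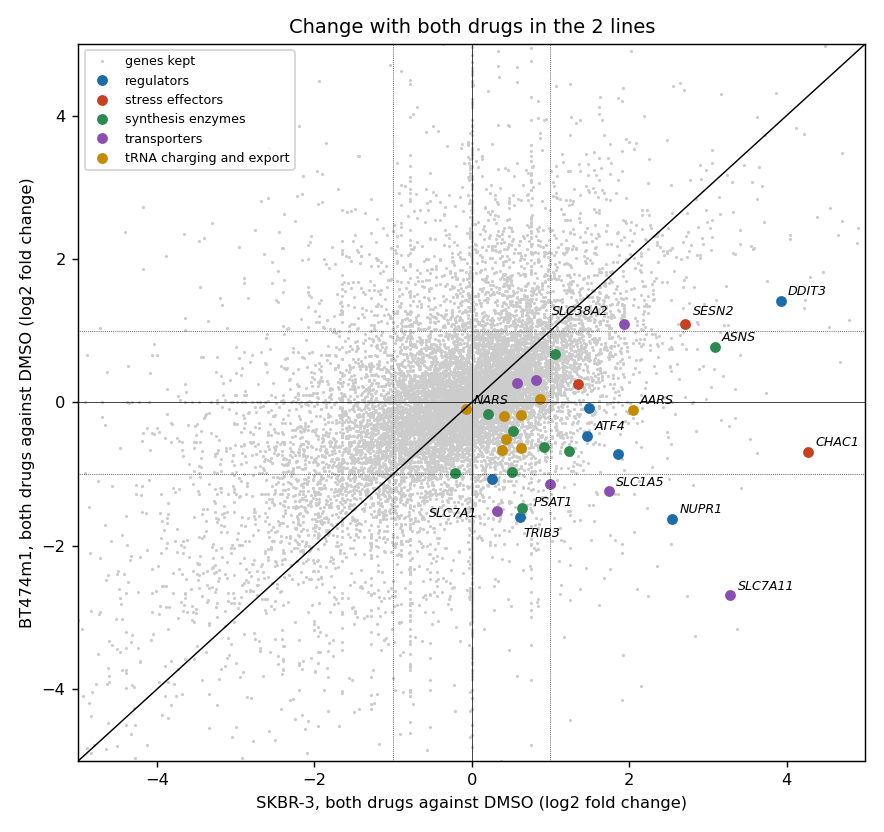
Log2 fold change with both drugs against DMSO in SKBR-3 (horizontal) and BT474m1 (vertical) for 34 members coloured by role and for all 14429 genes kept in grey (187 lie outside the axes); the diagonal marks equal change and dotted lines 2-fold. All 34 members lie below the diagonal, where 42.9% of all genes lie, with SLC7A11 at 3.29 and -2.69 the farthest from it.

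Both drugs were next compared with each drug alone. Relative to lapatinib alone, 13 of 34 members rose and 0 fell in SKBR-3 with the combination (2.92% and 15.6% of all genes), among them DDIT3 at 2.02 (1.86 to 2.19), ASNS at 2.0 (1.94 to 2.05) and SLC7A11 at 1.66 (1.57 to 1.76). Of the 13, ATF5, PSAT1 and SLC7A5 had been below DMSO with lapatinib, at -0.90, -0.57 and -0.29, and SLC1A4 was at -0.08 (-0.23 to 0.07). In BT474m1 0 of 35 rose and 6 fell (5.08% and 12.4%), namely SLC7A11 at -2.86, NUPR1 at -2.69, STC2 at -2.44, SLC7A1 at -1.62, TRIB3 at -1.22 and CHAC1 at -1.19 (-0.96 with a pseudocount of 10). Against JQ1 alone, both drugs raised 14 and lowered 0 in SKBR-3 (9.22% and 11.9%) and raised 1, NUPR1, and lowered 3 in BT474m1 (12.2% and 7.2%). The 3 became 5 by the median of ratios and 2 with a pseudocount of 10. The library with both drugs was the highest of the 4 SKBR-3 libraries for 27 of 34 members (23.4% of all genes) and the lowest for 0 (32.0%). In BT474m1 it was the highest for 3 of 35 members (25.8% of all genes) and the lowest for 15 (23.6%).

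A further measure was the change with both drugs minus the summed changes of the single drugs, into which each of the 4 libraries of a line enters once. In SKBR-3, 32 of 34 members lay above the sum, 6 of them at least 2-fold, and 0 lay at least 2-fold below it (median 0.43). Of all genes 42.0% lay above the sum, 3.90% lay at least 2-fold above and 7.58% as far below, with a median of -0.06. The 6 were NUPR1 at 3.57, DDIT3 at 2.09, SLC7A11 at 1.98, PHGDH at 1.66, PSAT1 at 1.55 and AARS at 1.06. They differed in kind. NUPR1 was above DMSO with lapatinib and far below it with JQ1, on 19 reads. With both drugs NUPR1 lay below lapatinib alone, at -0.72. DDIT3, SLC7A11 and AARS were above DMSO with lapatinib and within 2-fold of DMSO with JQ1, whereas PSAT1 was below DMSO with each drug and above it with both, and PHGDH was below it with JQ1, within counting error of it with lapatinib (-0.09, -0.23 to 0.05) and above it with both. In BT474m1, 9 of 35 members lay above the sum (50.8% of all genes) and 26 below, with a median of -0.19 (0.01 for all genes). The 2 that lay at least 2-fold below, a share near the 4.73% of all genes, were ALDH1L2 at -2.59 on few reads and STC2 at -2.18.

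**Figure D4:**
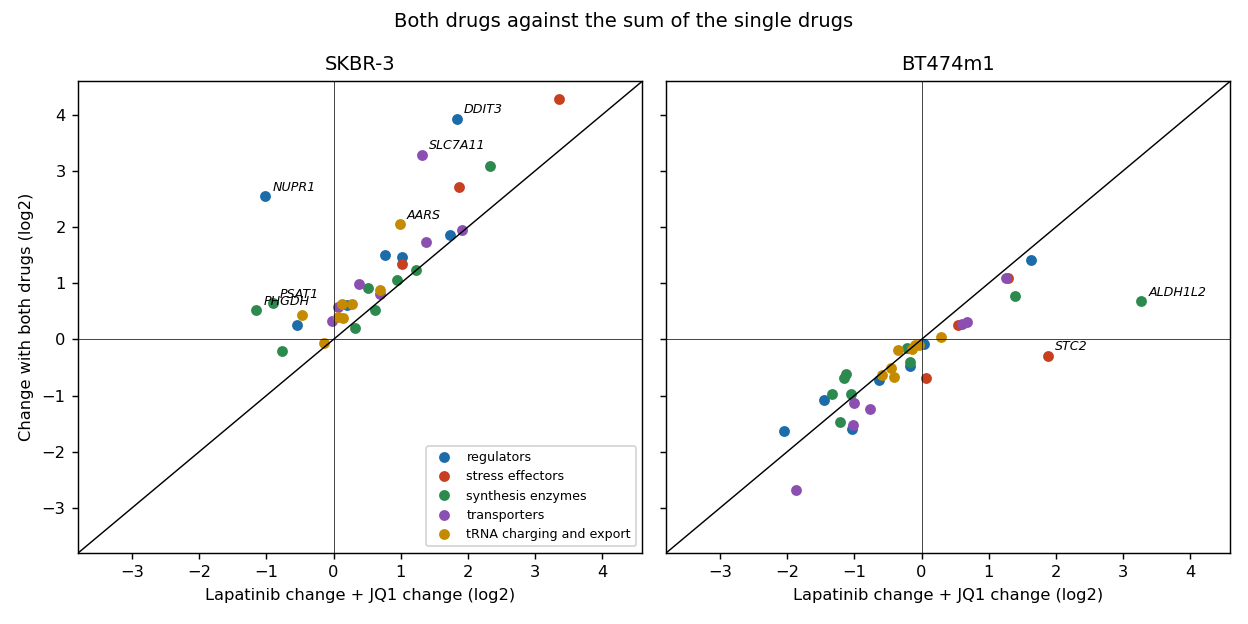
Log2 fold change with both drugs against DMSO (vertical) and the sum of the changes with lapatinib and with JQ1 (horizontal) for each member, coloured by role, in SKBR-3 (34 members) and BT474m1 (35); the diagonal marks equality and members at least 2-fold from it are named. In SKBR-3, 32 members lie above the diagonal, and in BT474m1 26 lie below it.

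The lines also differed before treatment. With DMSO, 9 of 35 members exceeded their SKBR-3 level at least 2-fold in BT474m1 and 6 were at least 2-fold under it, against 26.6% and 15.6% of all genes, so that the shares were near those of all genes. Higher in BT474m1 were STC2, NUPR1 (2.96), SLC1A4 (2.77), PSPH (2.44), DDIT3 (2.13), PHGDH and AARS (both 1.57), ATF5 (1.45) and ATF4 (1.08). Lower were ALDH1L2 (-4.31), SLC3A2 (-1.84), GPT2 (-1.77), SLC7A5 (-1.38), DDIT4 (-1.37) and SLC7A1 (-1.0). Among the members that rose in SKBR-3 with both drugs, DDIT3, NUPR1, AARS and ATF4 thus started from a lower level there than in BT474m1, ALDH1L2 and DDIT4 from a higher one, and CHAC1 and SLC1A5 from a like level. By the median of ratios ATF4 was no longer past 2-fold (0.93), SLC7A11 was (-1.03 in place of -0.88), and the counts were 8 and 7.

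Other genes of the pathway were followed in 8 lists of 103 genes in all, whose counts with both drugs stand against the 10.5% of all genes that rose and 20.3% that fell in SKBR-3, and 14.1% and 15.2% in BT474m1. The lists are short, and no count is read as setting one apart. Among 12 other targets of ATF4 and genes of its feedback, 7 rose and 1 fell with both drugs in SKBR-3 (median 1.21), and 3 rose and 3 fell in BT474m1 (median -0.08). KLHL24, a ubiquitin ligase adaptor, rose in both lines, from 982 to 6494 and from 898 to 4493 normalised counts, at 2.72 and 2.32. The other genes of the list that rose in BT474m1, ATF3 and GADD45A, also rose in SKBR-3. ATF3 was at 2.58 in SKBR-3 and 1.83 in BT474m1, and GADD45A at 2.17 and 1.10. PCK2, the mitochondrial PEP carboxykinase, was chosen after its values were seen and split like SLC1A5, at 2.51 and -1.07. GDF15 split in the same way, at 1.17 and -1.18. PPP1R15A (GADD34), the stress-induced subunit that directs dephosphorylation of eIF2alpha, likewise chosen after its values were seen, had changes of 0.35 in BT474m1 and 1.93 in SKBR-3.

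The 12 genes of the eIF2alpha kinases, eIF2alpha, its exchange factor and its phosphatase included 1 that rose with both drugs in SKBR-3, 0 that rose in BT474m1 and 0 that fell (medians -0.35 and -0.21). In SKBR-3 their changes ranged from -0.87 to 1.15, with 3 intervals above 0 and 9 below. The 1 gene that rose was EIF2AK1 (HRI), the haem-regulated kinase, at 1.15. It was named because the count was 1. EIF2AK3 (PERK), chosen after its values were seen, rose with lapatinib alone in SKBR-3, at 1.06, and stood at 0.02 in BT474m1.

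The 16 other genes of the cytosolic synthetases and their scaffold had a lower median than the 8 tRNA genes described above. In SKBR-3 with both drugs 4 were above 0 and 12 below, and 1 rose, CARS at 1.30, and 4 fell (median -0.62, against 0.53 for the 8), and in BT474m1 0 rose and 2 fell (median -0.37, against -0.18). VARS fell in both lines, at -2.22 and -1.59. Of 17 mitochondrial synthetase genes 0 rose and 6 fell in SKBR-3 (median -0.63) and 0 rose and 3 fell in BT474m1 (median -0.50).

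Among 12 other one-carbon genes, 11 of them above the floor in SKBR-3, 1 rose and 6 fell in SKBR-3 with both drugs and 3 rose and 5 fell in BT474m1. TYMS, thymidylate synthase, a gene tied to DNA synthesis, fell most among those that fell in both lines, from 2578 to 28.1 and from 2735 to 116 normalised counts. Of 13 other amino acid transporters, 12 above the floor in SKBR-3, 0 rose and 4 fell in SKBR-3 (median -0.70) and 2 rose and 2 fell in BT474m1 (median 0.17). SLC6A14, an importer of neutral and basic amino acids, fell in BT474m1 from 509 to 50.7 and was low in SKBR-3 throughout (at most 5.73). Of 14 other genes of amino acid metabolism, 2 rose and 3 fell in SKBR-3 and 4 rose and 3 fell in BT474m1, and GLUL, glutamine synthetase, rose with lapatinib in both lines, at 1.04 and 1.49.

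The last list held MYC and 5 genes of the unfolded protein response. With both drugs 3 of 6 rose in SKBR-3 (median 1.0) and 0 rose and 1 fell in BT474m1 (median 0.54). ERN1 (IRE1), a sensor of misfolded protein in the endoplasmic reticulum, rose with lapatinib in both lines, at 1.41 and 1.03. HSPA5 (BiP), the chaperone of that compartment, chosen after its values were seen, stood at 0.72 with both drugs in SKBR-3 and at 0.92 in BT474m1. With lapatinib alone HSPA5 was at 0.01 in SKBR-3 and rose in BT474m1, at 1.12. The gene that fell in BT474m1 was MYC, from 463 to 60.1 (-2.92), and it was at -0.60 in SKBR-3. In BT474m1 lapatinib alone raised MYC, at 2.32, and JQ1 alone lowered it, at -3.60. The SKBR-3 changes were -0.67 and -0.19. The part of MYC in the difference between the lines was not tested.

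**Figure D5:**
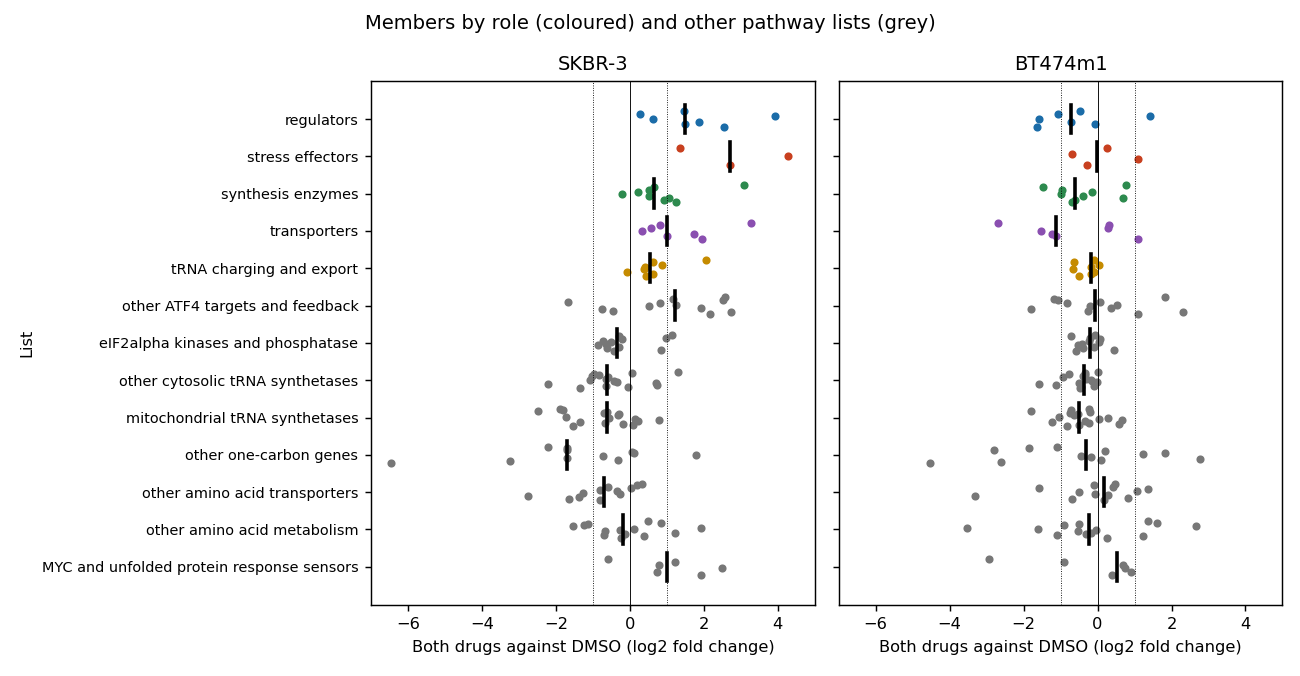
Log2 fold change with both drugs against DMSO for the members by role (coloured) and for the 8 other pathway lists (grey) in SKBR-3 and BT474m1; each point is a gene above the floor of 3 reads, black bars are medians and dotted lines mark 2-fold. In SKBR-3 the members' medians run from 0.53 to 2.71 and those of the other lists from -1.69 to 1.21, and in BT474m1 the members' medians run from -1.13 to -0.02.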

How the data were processed

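Poly(A) RNA was sequenced from 8 cultures, 1 for each line and treatment. Each deposited table holds a signal for every gene, an RSEM estimated read count per the labels, which the authors scaled to an upper quartile of 1000. The submitters' processing notes list hg19, RSEM, Picard 1.88, SAMtools 1.2 and R 3.2.2 among others, whereas the study's methods text names another build and other tools, so that the aligner and build behind these tables are uncertain. The labels give 48 h of treatment, which was followed, and name 2 library kits, so that it is uncertain whether reads were counted by strand.

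The value of 1 read was recovered as the common step of each table (0.471 to 0.766 units). With it, 83.8% to 85.2% of values above 0 were whole reads within 0.02, and 28 of 35 members were whole in all 8 libraries. Genes with a value of 10 in at least 1 library were kept (14429 of 20531), and fold changes were differences of log2(value + 1). A member was counted only where 1 of the 2 libraries compared had over 3 reads, a condition added after the data were seen. The floor of 3 reads was 1.41 to 2.30 units. Intervals at 95% are exact Clopper-Pearson intervals of the recovered reads and, like the floor, cover counting error only. They leave out the added 1, so that at low counts a fold change and its interval are not of quite the same quantity. Without replicates no test was made.

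The members, roles and lists were chosen with earlier results of these data known. Values in every library are given for ATF4 and for members that passed 2-fold in the same direction in both lines under a treatment against DMSO, or in opposite directions; other members whose values in every library are given were chosen after those were seen. From each other list, the gene was named with the largest mean change among those past 2-fold the same way in both lines under a treatment against DMSO. For 1 list the gene so named is not reported here. Promoters are RefSeq sequences of GRCh38.p14, matched by gene identifier. The alternatives tried were equal totals or a median of ratios as the scaling, a pseudocount of 10, a filter of 100 or none, means for medians, a core with 1 more base fixed, and no floor. The tools were Python 3.11.15 with pandas 2.3.3, numpy 2.4.6, matplotlib 3.10.9 and scipy 1.17.1, and the scripts were tested on simulated data.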

Additional observations from a re-analysis of the deposited data

Results flagged for a closer look

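In 6 cases a member passed 2-fold upwards in SKBR-3 and downwards in BT474m1 under the same comparison. Of all genes kept, 1.61% passed 2-fold in opposite directions, in either order, with both drugs against DMSO. The shares were 0.52% with both drugs against lapatinib and 0.92% against JQ1. The difference between the lines was not tested, since each group holds 1 library. For SLC7A11 the log2 fold changes differed by 5.97 with both drugs against DMSO (3.29 in SKBR-3 and -2.69 in BT474m1) and by 4.52 with both drugs against lapatinib (1.66 and -2.86). For NUPR1 they differed by 4.17 with both drugs against DMSO (2.55 and -1.63). For SLC1A5 they differed by 2.98 with both drugs against DMSO (1.74 and -1.24) and by 2.33 with both drugs against JQ1 (1.10 and -1.23). For CHAC1 they differed by 2.63 with both drugs against lapatinib (1.44 and -1.19), and the fall was -0.96 with a pseudocount of 10. SLC7A11 had 23.3 normalised counts in BT474m1 with both drugs, from 40 reads, and CHAC1 had 24.5, from 42 reads.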

How the results depend on the processing

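No paired analysis was possible within a line because each group holds 1 library. A fit over the 8 libraries with the line as a block was not run, since the difference in response between the lines would be its residual. With 1 library a group no replicate could be left out, and all intervals understate the error that separate cultures would show. No named member that passed 2-fold changed direction under any alternative. Scaling by the median of ratios gave SKBR-3 member medians of 0.25 with JQ1 (0.16 as reported) and 1.04 with both drugs (0.89), lowered 1 member in place of 2 with JQ1 in SKBR-3, and lowered 5 in place of 3 with both drugs against JQ1 in BT474m1. Scaling to equal totals brought the JQ1 median in SKBR-3 to 0.018, the members raised there from 3 to 1, and the members at least 2-fold higher in SKBR-3 than in BT474m1 with JQ1 from 5 to 3. With both drugs against DMSO 15 members rose in SKBR-3 as reported, 18 by the median of ratios and 14 at equal totals, and 0 fell under each. The median of all genes shifted by over 0.1 in 3 cases: by 0.11 (both drugs against lapatinib, SKBR-3) and by -0.15 (DMSO, BT474m1 against SKBR-3) with the median of ratios, and by -0.14 (JQ1, SKBR-3) at equal totals. Without the filter on low values, which adds genes at 0, 2 such medians moved, by 0.11 and -0.21. The mean in place of the median of the members in SKBR-3 gave 0.57 for lapatinib, 0.041 for JQ1 and 1.28 for both drugs. With DMSO, BT474m1 against SKBR-3, the 9 members higher and 6 lower became 8 and 7 by the median of ratios and 9 and 5 with a pseudocount of 10. A pseudocount of 10 left 1 member raised by JQ1 in BT474m1 in place of 2. Without the floor of 3 reads, 1 member, STC2, counted as lowered by lapatinib in SKBR-3 in place of 0. A core of TGATGCAA was found in 7 members in place of 11 (24.1% of members and 0.932% of genes). With a filter at 100, 11758 genes and all 35 members were kept. Beyond the settings themselves, the cause of these moves was not tested. The sum of single drugs and the comparison of the lines were recomputed under alternatives chosen after seeing the data.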
